A study of Danio rerio with 3 samples.

Results

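The comparison described here set zebrafish larvae raised in 500 μg/L BDE47 against larvae raised in the DMSO vehicle, gene by gene across the whole transcriptome at 6 dpf (days post fertilization). A gene entered it when it was an mRNA entry with a name of its own and held at least 10 normalized counts in 1 or both of the 2 libraries. Of the 21098 entries, 19814 were such named mRNA genes, and 17758 of these reached the minimum. BDE47 is a tetrabrominated diphenyl ether from a class of flame retardants that persist in the environment and build up in tissue. The study asked how the larval transcriptome responds to a low and a high concentration of it.

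All larvae were of the Tuebingen strain, with no transgene or mutation named, and were homogenized whole at 6 dpf. Exposure started within hours of fertilization, and both BDE47 groups received the compound in the same DMSO carrier that the vehicle group received alone. Each group was a pool of larvae that gave 1 library, and 3 libraries were used here, for DMSO vehicle and for BDE47 at 5 and 500 μg/L. A blank control without vehicle was not analysed here. The pool is the limit of the comparison, because it holds no replicate from which the spread between clutches, pools or library preparations could be taken. The sequencing data therefore give no replicate check of any difference, and no p-value is given. The study's quantitative PCR on other larvae was not analysed here.

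A whole larva at this age holds most organs of the adult in small form, with a working liver, an exocrine pancreas that secretes digestive enzymes, a gut that is starting to absorb food, a retina with layered photoreceptors, striated muscle and a skeleton that is largely cartilage. Cells under chemical or proteotoxic stress usually raise chaperones, protein-degrading systems and short-lived transcription factors, while the transcripts of differentiated organs depend both on how many cells of the organ are present and on how active they are. In RNA from whole larvae, fewer cells of a type and less RNA per cell cannot be told apart.

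The values were reads per gene model scaled by the authors with the TMM method (trimmed mean of M values). They are called normalized counts. From the vehicle to the low and the high dose, the named mRNA genes held 34156825, 25125399 and 22186369 reads, and the median gene held between 193 and 312 reads per library. A fold change (FC) is the ratio of normalized counts at 500 μg/L to those in DMSO vehicle. The 95% confidence interval (CI) beside it was derived by the exact Clopper-Pearson method from how the gene's reads divided between the libraries. Without molecular identifiers it can cover nothing but counting error. For single genes, 3 values in a row give the normalized counts in DMSO vehicle, then at the 5 μg/L dose, then at the 500 μg/L dose. Of 58 markers listed for 14 organs or cell types 51 had a matching symbol, and each of these was detected in all 3 libraries but hbaa1, an adult globin gene at 0 in both BDE47 libraries. The summed level of a marker set at 500 μg/L lay between 0.451 times (skin keratins) and 2.45 times (pigment cells) its level in DMSO vehicle. The skeletal muscle, lens and brain sums stayed between 0.957 and 0.967 times the vehicle level.

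At 500 μg/L, 1314 genes (7.40% of those compared) were at least 2-fold higher than in DMSO vehicle and 841 genes (4.74%) were at least 2-fold lower. At 1.25-fold there were 5034 higher and 5058 lower genes, at 4-fold 237 and 108, at 8-fold 82 and 28, at 16-fold 36 and 17, and at 32-fold 16 and 13. Higher genes thus outnumbered lower ones most clearly from 4-fold to 16-fold. The interval lay wholly above an FC of 1 for 5512 genes and wholly below it for 5432 genes, and it lay wholly past the 2-fold threshold for 708 higher and 233 lower genes. The threshold cut through a dense part of the distribution, as 302 genes had an FC between 2 and 2.2 and 442 genes one between 1.8 and 2. The gene nearest above the upper threshold was st3gal2l with an FC of 2.00 and the gene nearest below it was tmed9 with 1.998. At the lower threshold tuba1 had 0.4997 and pax2b 0.5002.

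**Figure D1:**
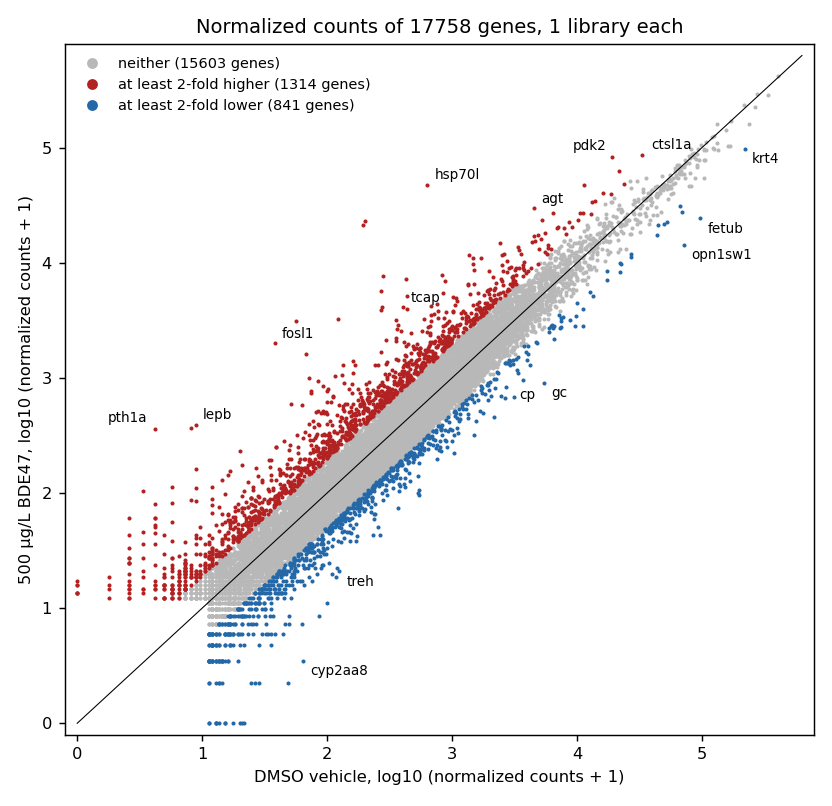
Normalized counts (log10 after adding 1) in DMSO vehicle (horizontal axis) and at 500 μg/L BDE47 (vertical axis), 1 point per gene and 1 library per axis, with the line of equal counts. The 1314 genes at least 2-fold higher (red) and the 841 at least 2-fold lower (blue) were spread over the whole range of expression, and the farthest points above the line were heat shock genes and pth1a.

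The shares of higher and lower genes varied with the expression level. Among genes whose larger library held 10 to 50 normalized counts, 10.5% were higher and 12.3% lower. Most of these were poorly measured, as only 42 higher and 26 lower genes of that class had their whole interval past 2-fold. Counted by whole intervals, higher genes outnumbered lower ones in every expression class. Among the genes with 1000 to 10000 normalized counts 8.74% were higher and 2.32% lower, and among the 433 genes with at least 10000 these shares were 11.1% and 4.62%. The higher genes together took 3.25% of the normalized counts on named mRNA genes in DMSO vehicle and 9.32% at 500 μg/L. The lower genes took 4.96% and 1.92%, respectively. Of the higher genes 36 had 3 or fewer reads in DMSO vehicle, and of the lower genes 75 had 3 or fewer reads at 500 μg/L, and for these the FC is poorly measured.

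Genes with and without a human match in the deposited annotation can be set side by side. Of the 15849 genes with a human match 7.02% were higher and 4.51% lower, and of the 1909 without one 10.5% were higher and 6.60% lower. Genes that carry only a provisional LOC name showed 8.52% higher and 6.51% lower, against 6.72% and 3.66% of the genes with a proper symbol. These classes also differed in expression level. The median gene with a human match held 411 normalized counts in its larger library, and the median gene without one 128. The median level was likewise lower for LOC names than for proper symbols. The part of the expression level in these shares was not tested. The 2851 genes whose description says that they are uncharacterized included 253 higher and 151 lower genes.

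Measured in normalized counts rather than in ratios, the genes at least 2-fold higher together gained 1703543, and no single gene gained more than 64194. The gene with the largest gain was pdk2, which encodes a mitochondrial kinase that switches off pyruvate dehydrogenase and so spares glucose. It held 19120, 28533 and 83314 normalized counts, an FC of 4.36 (95% CI 4.29 to 4.42). The lysosomal protease gene ctsl1a followed with 33336, 38296 and 87005 normalized counts (FC 2.61), then the heat shock gene hsp70l with 632, 519 and 47595 (FC 75.3) and the ubiquitin gene ubb with 21715, 27258 and 63246 (FC 2.91). In each of these 4 genes the 500 μg/L library stood far above the other libraries. Also among the 8 largest gains were agt, which encodes the liver-made precursor of angiotensin (4557, 3993 and 29812, FC 6.54), and chac1, whose product breaks down glutathione (11315, 15038 and 46868, FC 4.14).

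The largest loss was that of krt4, an epidermal keratin gene, with 219150, 210583 and 97549 normalized counts (FC 0.445, 95% CI 0.442 to 0.449). The liver-secreted protease inhibitor gene fetub went from 96735 and 89780 to 24376 (FC 0.252) and the ultraviolet cone opsin gene opn1sw1 from 72288 and 79480 to 14324 (FC 0.198). The trypsin gene try (FC 0.663), the chymotrypsinogen gene ctrb1 (0.630), the keratin genes cyt1 (0.622) and cyt1l (0.518) and the elongation factor gene ef1a (0.854) completed the 8 largest losses, none of these 5 past the 2-fold threshold.

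**Figure D2:**
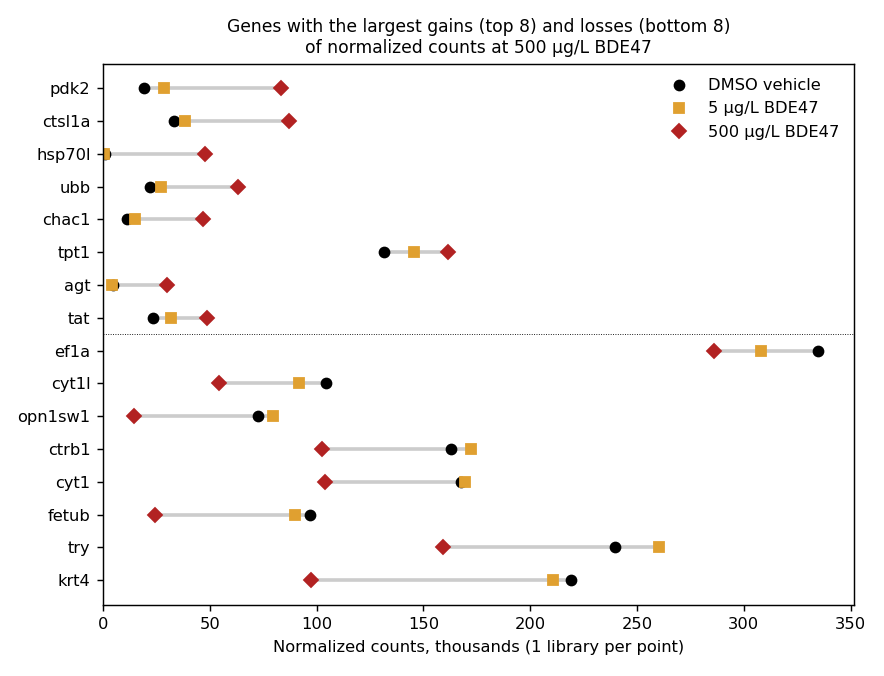
Normalized counts (horizontal axis, in units of 1000) for the 8 genes with the largest gain and the 8 with the largest loss at 500 μg/L, 1 symbol per library. For most of the genes the DMSO vehicle and 5 μg/L symbols lay close together and the 500 μg/L symbol apart, as for pdk2 (19120, 28533 and 83314) and krt4 (219150, 210583 and 97549).

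Genes were grouped into 72 lists by their known roles, such as pathways, complexes and organ markers, covering 2846 of the genes. A list is described by its members past the 2-fold threshold and by the median log2 FC of its members (after adding a pseudocount of 1), which was -0.02 for all 17758 genes. Counts of members above or below the vehicle level stand beside 8691 of all genes (48.9%) above it. The list median was at least 0.5 for 16 lists and at most -0.5 for 6 lists. Only 5 lists had no member past the threshold in either direction, and 49 had members past it in both. A member under the minimum in 1 library entered through the other alone, so these shares may be partly set by the minimum. The lists with high medians held stress, chaperone, tRNA synthetase, proteasome, inflammatory, globin and heme, apolipoprotein and melanophore pigment genes. Those with low medians held collagens, clotting and complement proteins, pancreatic enzymes, the replication machinery and photoreceptor and retinal regulators.

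**Figure D3:**
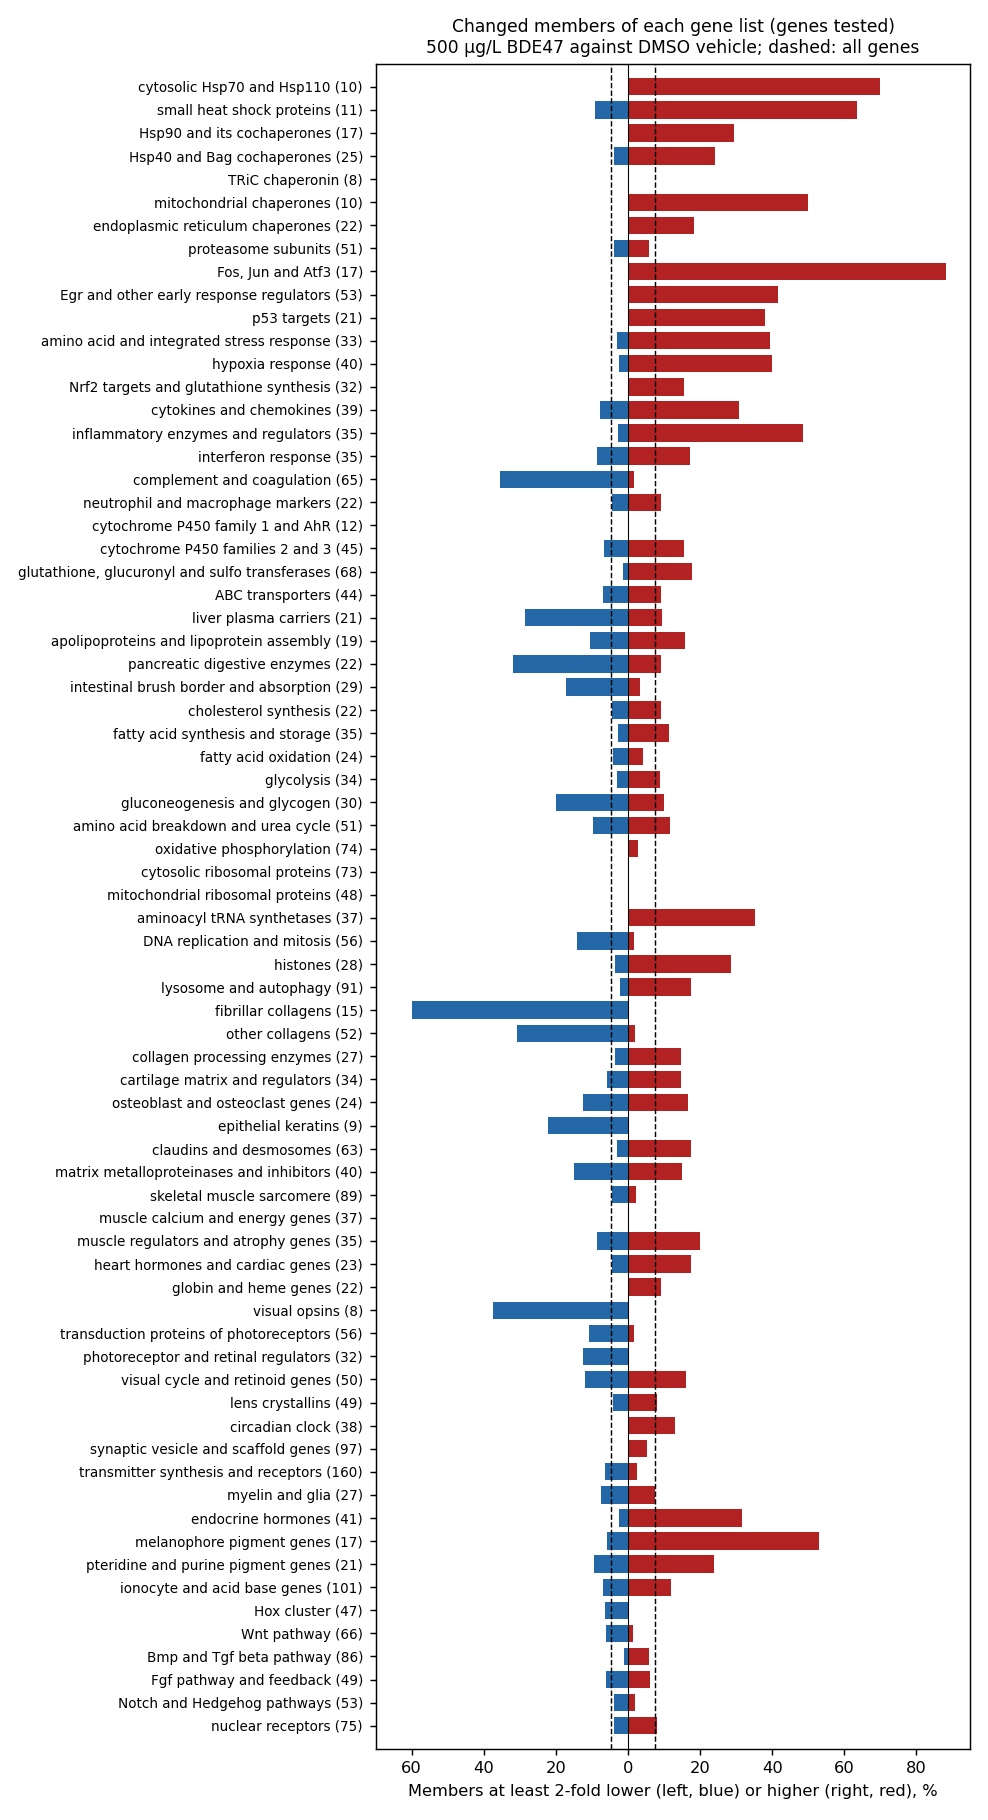
Share of the members of each of the 72 lists that were at least 2-fold higher (red, right) or at least 2-fold lower (blue, left) at 500 μg/L, in percent of the members compared, whose number stands in brackets. Dashed lines mark the shares over all genes, 7.40% and 4.74%. The Fos, Jun and Atf3 list reached farthest to the right, with 15 of 17 members, and the fibrillar collagens farthest to the left, with 9 of 15. The former list also holds Maf genes such as maff and mafk and a gene matched to human BATF.

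Lists of genes for protein folding had medians above that of all genes in every compartment covered. Of the cytosolic Hsp70 and Hsp110 genes 7 of 10 were at least 2-fold higher and none lower (median log2 FC 1.84), and of the small heat shock proteins 7 of 11 were higher and 1 lower (1.32). The list of mitochondrial chaperones, which also holds proteases such as lonp1, followed with 5 of 10 higher (0.99). The endoplasmic reticulum list also holds genes that are not chaperones, such as xbp1, herpud1 and sec61b. Of its 22 genes only 4 passed the threshold, but 21 lay above the vehicle level (0.53). The TRiC chaperonin, which folds actin and tubulin, had none of its 8 subunits past the threshold and a median of 0.21.

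The cytosolic cochaperones give the partners of Hsp70 and Hsp90 in more detail. The gene for fkbp5, an Hsp90 cochaperone that binds steroid receptors and is itself a known target of the glucocorticoid receptor, held 1363, 2151 and 11758 normalized counts (FC 8.62, 95% CI 8.19 to 9.08). The Hsp90 gene hsp90a held 6406, 5979 and 27161 (FC 4.24), and ptges3a, the p23 cochaperone of Hsp90, held 3273, 3971 and 8933 (FC 2.73). Of these only fkbp5 was also more than 1.5-fold higher at 5 μg/L. The Hsp40 genes dnaja (FC 4.93) and dnajb1b (4.14) and the Hsp70 nucleotide exchange factor gene bag3 (2.93) led a list in which 6 of 25 were higher and 1 lower. That list also holds the heat shock factor genes hsf1, hsf2 and hsf4.

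Mitochondria keep chaperones and proteases of their own for misfolded proteins. The matrix protease gene lonp1 held 556, 508 and 1805 normalized counts (FC 3.25, 95% CI 2.97 to 3.56). The mitochondrial Hsp70 gene hspa9 (7806, 9186 and 20145, FC 2.58) and the Hsp60 gene hspd1 (2560, 2363 and 6371, FC 2.49) followed. In the endoplasmic reticulum the Hsp70 gene hspa5, which encodes BiP, held 3092, 1925 and 7618 (FC 2.46), the transcription factor gene xbp1 held 4940, 4800 and 13126 (FC 2.66), and manf, a secreted protective factor of that compartment, had an FC of 2.53.

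The proteasome, which degrades proteins tagged with ubiquitin, showed mostly small differences. Of the 51 genes on the list 42 lay above the vehicle level, with a median log2 FC of 0.64, but only 3 were at least 2-fold higher, psme3 (FC 2.14), psmb3 (2.02) and psmc1b (2.01), and 2 at least 2-fold lower, psmb11 (0.485) and psmb9a (0.468). Subgroups of this list were formed after the values were seen. Of 37 other proteasome subunits with a symbol 36 were above the vehicle level, with a median FC of 1.65. The 6 genes of the immune and thymic forms of the complex and their activator had a median FC of 0.651, from 0.468 for psmb9a to 1.76 for psmb10. Both extremes rest on few reads, with 21.3 and 14.2 normalized counts in DMSO vehicle, while the activator genes psme1 (655, 527 and 470) and psme2 (439, 355 and 307) were well measured.

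Lysosome and autophagy genes showed the same direction, with 16 of 91 higher, 2 lower and a median log2 FC of 0.44. The higher genes included MGC174857, MGC174155 and LOC100537665, all matched to human CTSL2. In DMSO vehicle these held only 2, 4 and 4 reads, against 48 reads each at 500 μg/L. They met the minimum through the 500 μg/L library alone, so their FCs are poorly measured. MGC174155 and LOC100537665 had the same reads in all 3 libraries but were counted singly. The autophagy receptor gene sqstm1, which encodes p62, held 3445, 3751 and 12872 normalized counts (FC 3.74, 95% CI 3.61 to 3.87). On the lower side were a gene matched to the human acid glucosidase GAA (LOC100332784, FC 0.440) and atp6v0a1, a subunit of the proton pump that acidifies the lysosome (FC 0.431, 95% CI 0.271 to 0.665).

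Most amino acids are loaded onto their tRNA by an enzyme of their own, often with separate genes for the cytosolic and the mitochondrial enzyme. On the list, 13 of 37 genes were at least 2-fold higher and none lower. The threonine enzyme gene tars held 1339, 1380 and 6473 normalized counts (FC 4.83, 95% CI 4.58 to 5.11), the tyrosine enzyme gene yars held 1069, 1108 and 4982 (FC 4.66), and the lysine enzyme gene kars held 6992, 7366 and 20384 (FC 2.92). The genes were divided by symbol after the values were seen. All 19 genes with a symbol that were counted as cytosolic lay above the vehicle level, with FCs from 1.12 to 4.83 and a median of 2.04. Of the 10 genes whose symbol marks the mitochondrial enzyme, 8 lay below it and none passed the threshold, with FCs from 0.717 for iars2 to 1.61 for pars2 and a median of 0.925.

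Ribosomal protein genes stayed within 2-fold. None of the 73 cytosolic ribosomal protein genes passed the threshold in either direction, and their median log2 FC was -0.10. None of the 48 mitochondrial ribosomal protein genes passed it either, although 41 lay above the vehicle level (0.31).

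The amino acid and integrated stress response list, targets of the Atf4 branch that cells switch on when amino acids are short or the endoplasmic reticulum is overloaded, had 13 of 33 members higher and 1 lower. Besides chac1, they included mthfd2 (75.9, 68.9 and 421 normalized counts, FC 5.55), a mitochondrial enzyme of one-carbon metabolism. The gene sesn2, whose product restrains TOR kinase signalling, held 109.9, 119 and 693 normalized counts (FC 6.31, 95% CI 5.23 to 7.66). The asparagine synthetase gene asns (427, 342 and 1533, FC 3.59) and the serine synthesis gene psat1 (607, 611 and 1345, FC 2.22) are further members chosen after their values were seen. The lower member was cthl, an enzyme gene of cysteine synthesis, with an FC of 0.423.

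Short-lived transcription factors and their feedback genes were among the genes with the largest ratios. Of the 53 early response regulators 22 were at least 2-fold higher and none lower. The nuclear receptor genes nr4a1 (352, 344 and 2197 normalized counts, FC 6.25) and nr4a3 (149, 157 and 807, FC 5.4) and the stress gene gadd45aa (358, 396 and 2092, FC 5.84) were level between DMSO vehicle and 5 μg/L. The kinase gene sgk2b held 83.0, 127 and 938 normalized counts (FC 11.3, 95% CI 9.21 to 14), and LOC100538016, matched to the human antiproliferative gene BTG3, had an FC of 14.1. Among factors with many reads, cebpd, a regulator of the acute phase response, held 10150, 9494 and 23645 (FC 2.33).

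Genes known to respond to stress hormones were also looked at after their values were seen. The transcription factor gene klf9 held 2486, 3992 and 9553 normalized counts (FC 3.84, 95% CI 3.69 to 4.01), and tsc22d3, which encodes the leucine zipper protein GILZ, held 5797, 6192 and 11888 (FC 2.05). These 2 genes were picked singly and no list of such targets was counted.

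The hypoxia list had 16 of 40 members higher and 1 lower. The vascular peptide gene adm2 held 115, 172 and 1044 normalized counts (FC 9.05, 95% CI 7.58 to 10.9). Nrf2 targets, which cells raise against oxidants and electrophiles, moved less. Of 32 such genes 5 were higher and none lower, with a median log2 FC of 0.29. The highest of those with at least 50 normalized counts was LOC558816, matched to the human iron-storage gene FTH1 (FC 4.15), and gclm, a subunit of the enzyme that makes the glutathione precursor, held 603, 703 and 1733 (FC 2.87).

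**Figure D4:**
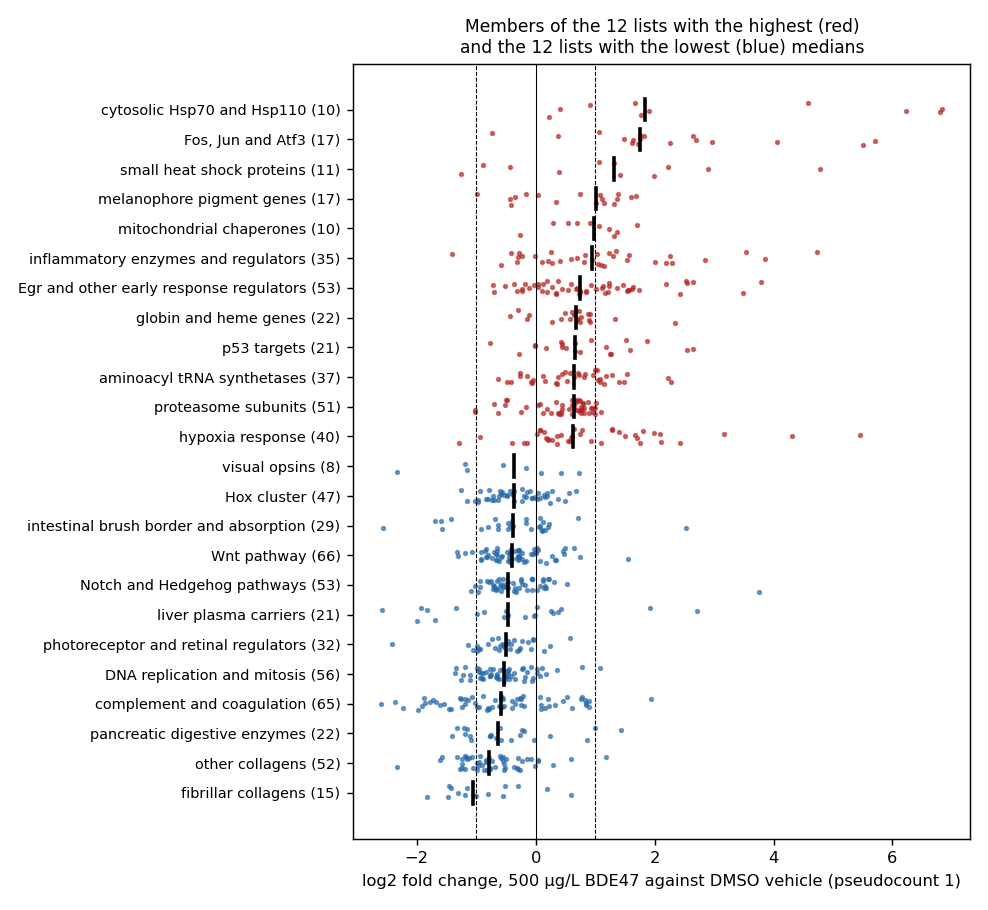
Log2 FC (after adding 1) of each member, 1 point per gene, for the 12 lists with the highest medians (red) and the 12 with the lowest (blue), with a black bar at the median and dashed lines at 2-fold. The medians ran from 1.84 for cytosolic Hsp70 and Hsp110 to -1.05 for fibrillar collagens, and single members lay on the other side of 0 in most lists.

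Immune lists differed from each other. Of 35 inflammatory enzymes and regulators 17 were higher and 1 lower (median log2 FC 0.94), and of 39 cytokines and chemokines 12 were higher and 3 lower (0.36). The neutrophil attractant gene il8 held 111, 102 and 676 normalized counts (FC 6.11, 95% CI 5.06 to 7.41). The gelatinase gene mmp9 held 439, 251 and 5094 (FC 11.6), and the metalloproteinase inhibitor gene timp2b held 268, 246 and 3893 (FC 14.5). Lower cytokines with at least 50 normalized counts were tnfsf10l2, a relative of the death ligand TRAIL (835, 863 and 320, FC 0.383), and LOC100333914, matched to human CCL21 (90.1, 42.6 and 22.5, FC 0.250). The gene LOC100536983, described as a member of the tumor necrosis factor receptor superfamily, had one of the 8 largest ratios, with 55.3, 92.9 and 3123 normalized counts (FC 56.4, 95% CI 44.5 to 72.6).

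On the antiviral interferon list 6 of 35 members were higher and 3 lower, with a median log2 FC of 0.10 that became -0.10 when no minimum was set. The ubiquitin-like gene isg15 held 91.7, 166 and 843 normalized counts (FC 9.20, 95% CI 7.54 to 11.3), and the regulator gene irf7 held 256, 332 and 1284 (FC 5.01). The antiviral GTPase gene mxc went the other way, with 149, 85.3 and 58.7 (FC 0.395). Of 22 neutrophil and macrophage markers 2 (9.09%) were higher and 1 (4.55%) lower, beside 7.40% and 4.74% of all genes. The summed level of the marker sets was 1.41 times the vehicle level for neutrophils and 1.17 times for macrophages. Neutrophil markers ran from 1.04 times for lyz to 1.71 times for nccrp1. The macrophage sum rests on 2 of 4 listed markers that differed in direction, mpeg1 at 0.980 times and csf1ra at 1.40 times. The part of such cells in the inflammatory counts was not tested.

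Secreted products of the liver divided. Of 65 complement and coagulation genes only 1 was at least 2-fold higher and 23 were lower (median log2 FC -0.58), and of 21 plasma carrier genes 2 were higher and 6 lower (-0.46). The vitamin D carrier gene gc held 5423, 4225 and 902 normalized counts (FC 0.166, 95% CI 0.154 to 0.180), the lowest ratio of that list. The copper carrier gene cp, which encodes ceruloplasmin, held 3675, 1374 and 967 (FC 0.263), and was thus already lower at 5 μg/L. The protease inhibitor gene serpina1 went from 26878 and 30250 to 11123 (FC 0.414), and LOC100006782, matched to the human protease trap A2M, from 2657 and 2506 to 673 (FC 0.253).

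Other liver products were higher. Besides agt these included hpx, the heme scavenger hemopexin (46.6, 70.0 and 179, FC 3.83). The 3 fibrinogen chain genes, looked at after their values were seen, lay between an FC of 1.43 for fga and 1.79 for fgb, while the terminal complement gene c9 had an FC of 0.455. The summed level of the liver marker set at 500 μg/L was 0.567 times the vehicle level, from 0.395 for fabp10a to 0.706 for tfa, and its part in the lower liver transcripts was not tested.

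The digestive tract showed lower levels of many enzymes. Of 22 pancreatic enzyme genes 7 were at least 2-fold lower and 2 higher, with a median log2 FC of -0.63. Together they held 1185027 normalized counts in DMSO vehicle and 760792 at 500 μg/L. The elastase genes ela2 (52089, 52925 and 22626, FC 0.434) and ela2l (69373, 72835 and 27805, FC 0.401) and the carboxypeptidase gene cpa1 (21900, 24034 and 8237, FC 0.376) were level between DMSO vehicle and 5 μg/L.

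At the intestinal brush border, where sugars and peptides are cut and taken up, 5 of 29 genes were lower and 1 higher. The sugar-splitting enzyme genes treh (123, 77.6 and 19.99 normalized counts, FC 0.162, 95% CI 0.0904 to 0.272) and LOC100331289, matched to human sucrase-isomaltase SI (1661, 1007 and 513, FC 0.309), were both lower. So was LOC100004272, matched to the peptide transporter SLC15A1 (1348, 1274 and 448, FC 0.333). The higher gene was LOC100004607, matched to APOA4, a lipoprotein component that the gut secretes when it absorbs fat, with 761, 603 and 4421 (FC 5.81, 95% CI 5.41 to 6.24). The summed intestine marker set was 1.30 times the vehicle level, but its members differed in direction. The abundant apoa4 stood at 1.64 times the vehicle level, anpep at 1.16 and fabp2 at 0.739.

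Single genes of carbohydrate metabolism differed in direction. The liver pyruvate kinase gene pklr, the last step of glycolysis, held 11204, 8550 and 2833 normalized counts (FC 0.253, 95% CI 0.242 to 0.264), while hk2, the first step in muscle and fat, held 273, 200 and 761 (FC 2.78). The gluconeogenic enzyme genes pck1 (13022, 16119 and 26545, FC 2.04) and g6pca (828, 1164 and 1775, FC 2.14) were higher. The liver genes that build and break glycogen, gys2 (2189, 2618 and 817, FC 0.373) and pygl (3293, 3090 and 1177, FC 0.357), were both lower. Over the whole lists 3 of 34 glycolysis genes (8.82%) were higher and 1 (2.94%) lower, near the shares over all genes (7.40% and 4.74%). All 3 higher entries were matched to human HK2, and LOC100329357 and LOC100536576 among them had the same reads in all 3 libraries. Of 30 gluconeogenesis and glycogen genes 3 were higher and 6 lower.

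Enzymes that break down amino acids were also mixed, with 6 of 51 higher and 5 lower. The tryptophan enzyme gene tdo2b held 2749, 5323 and 10401 normalized counts (FC 3.78, 95% CI 3.64 to 3.94), so its 5 μg/L level was also above that of the vehicle. The arginase gene arg2 held 10539, 11917 and 26830 (FC 2.55), and the glutamine synthetase genes glula (18716, 21483 and 39772, FC 2.12) and glulb (13841, 16458 and 34226, FC 2.47) remove ammonia by binding it to glutamate. The sarcosine enzyme gene sardh held 534, 389 and 98.7 (FC 0.185, 95% CI 0.145 to 0.234).

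Lipid genes changed at single steps. The desaturase gene scd, which makes monounsaturated fatty acids, held 15.02, 18.6 and 141 normalized counts (FC 9.40, 95% CI 5.75 to 16.2), and the lipid droplet coat gene plin2 held 128, 120.2 and 455 (FC 3.55). The endothelial lipase gene lipg held 392, 528 and 2543 (FC 6.49), and apob, the scaffold of lipoprotein particles, held 4068, 5379 and 1873 (FC 0.460), while the far more abundant apobl, matched to the same human gene, went from 98750.3 in DMSO vehicle to 105047 at 500 μg/L (FC 1.06). The polyunsaturated fatty acid desaturase gene fads2 went the other way from scd, with 701, 950 and 261 (FC 0.372). Of 22 cholesterol synthesis genes 2 (9.09%) were higher and 1 (4.55%) lower, near the shares over all genes (7.40% and 4.74%). Their median log2 FC was 0.44, with hmgcra, the rate-limiting enzyme, at 182, 149 and 563 (FC 3.10). Fatty acid oxidation was near the background, with 1 of 24 higher, cpt1b, the carnitine transferase of muscle mitochondria (FC 2.79), and 1 lower, ehhadh of peroxisomes (FC 0.428). One enzyme of the glyoxylate pathway, LOC564844, described as malate synthase-like, held 545, 486 and 94.9 (FC 0.174).

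Foreign compounds are oxidized, conjugated and pumped out of cells. None of the 12 genes of the cytochrome P450 family 1 and AhR list, which dioxin-like compounds usually raise, passed the threshold. Of 45 genes of families 2 and 3, 7 were higher and 3 lower, with a median log2 FC of 0.04. Among them cyp2k18 held 161, 233 and 1398 normalized counts (FC 8.67, 95% CI 7.46 to 10.1) and cyp2ad2 held 4238, 4317 and 1303 (FC 0.307). The gene cyp2aa8 fell to 2 reads at 500 μg/L, with 63.2, 21.9 and 2.5 normalized counts (FC 0.0395, 95% CI 0.0047 to 0.147).

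Conjugating enzymes leaned upward, with 12 of 68 higher and 1 lower. The glucuronyl transferase genes ugt5a1 (70.3, 64.5 and 399.8 normalized counts, FC 5.68) and ugt5a2 (63.2, 40.4 and 299.8, FC 4.74) attach a sugar acid that makes compounds soluble. Among the ABC transporters 4 of 44 (9.09%) were higher and 3 (6.82%) lower, near the shares over all genes (7.40% and 4.74%). The bile salt export pump gene abcb11b held 809, 839.6 and 231 (FC 0.286, 95% CI 0.243 to 0.334), and the drug efflux pump gene abcg2a held 4728, 4707 and 2046 (FC 0.433). The peptide transporter gene abcb9 of lysosomes was higher, with 356, 373 and 1457 (FC 4.09).

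Nuclear receptors switch genes in response to hormones, bile acids and lipids. The bile acid feedback gene nr0b2a, which encodes the small heterodimer partner SHP, held 1510, 1351 and 319 normalized counts (FC 0.211, 95% CI 0.184 to 0.240), and nr5a5 held 1936, 1909 and 640 (FC 0.330). Over the 75 nuclear receptor genes 6 were higher and 3 lower, so the list as a whole stood near the background.

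Peptide hormones leaned upward, with 13 of 41 higher and 1 lower and a median log2 FC of 0.49. The gene LOC557301, matched to CARTPT, whose peptide curbs feeding in mammals, held 271, 293 and 5724 normalized counts (FC 21.1, 95% CI 18.9 to 23.6). The leptin genes started from very few reads, with 4.74, 3.28 and 112 for lepa (FC 23.7, 95% CI 10.5 to 66.3) and 7.90, 0 and 391 for lepb. The somatostatin gene sst2 was the lower member (545, 284 and 239, FC 0.438). The BNP-like natriuretic peptide gene LOC100334610, chosen after its values were seen, held 19, 26.2 and 229 (FC 12.1, 95% CI 7.85 to 19.3). Insulin-like growth factor binding protein genes igfbp1a (4323, 5060 and 15119, FC 3.50) and igfbp1b (4591, 4777 and 15419, FC 3.36), chosen in the same way, were both higher at 500 μg/L and lay close to each other within each library.

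Genes for calcium balance and bone did not share a direction. Parathyroid hormone raises blood calcium in mammals, and its gene pth1a held 3.16, 7.65 and 356 normalized counts (FC 113, 95% CI 43.5 to 416). The related gene pth2 was lower, with 236, 289.7 and 58.7 (FC 0.248), and the gene of calcitonin, calca, was higher, with 439, 551 and 1039 (FC 2.37). The osteoclast phosphatase gene acp5a held 76.7, 97.3 and 226 (FC 2.95). Of the 24 osteoblast and osteoclast genes 4 were higher and 3 lower, with a median log2 FC of 0.03.

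The collagen lists were the lowest of all. Of 15 fibrillar collagen genes 9 were at least 2-fold lower and none higher (median log2 FC -1.05), and of the 52 other collagens 16 were lower and 1 higher (-0.78), with 47 of these 52 below the vehicle level or equal to it. The minor fibril gene col5a3b held 993, 484 and 279.8 normalized counts (FC 0.282, 95% CI 0.243 to 0.325), and the cartilage fibril gene col27a1a held 542, 480 and 182 (FC 0.336). The basement membrane gene col4a6 held 1605, 1396 and 642 (FC 0.40), and col28a1a, a collagen known from nerve tissue in mice, held 256, 196 and 49.97 (FC 0.195). The 1 higher gene was col8a1b, a network collagen of vessels and cornea (148, 173 and 337, FC 2.28).

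Collagen is trimmed and cross-linked by enzymes outside the cell. The lysyl oxidase gene lox held 139, 156 and 588 normalized counts (FC 4.23, 95% CI 3.55 to 5.06) and its relative loxl2a held 248, 349.8 and 763 (FC 3.08), while bmp1b, a protease that trims procollagen, held 292, 250.3 and 106 (FC 0.363). Of 27 processing enzymes 4 were higher and 1 lower. Metalloproteinases and their inhibitors divided evenly, with 6 of 40 higher and 6 lower, the lower ones including adamts18 (161, 196 and 72.5, FC 0.449) and adamtsl3 (207, 186 and 84.9, FC 0.410).

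Keratins form the filaments of epithelial cells. Of 9 epithelial keratin genes 2 were lower and none higher, krt4 and krt5 (44451, 30971 and 21229, FC 0.478). Claudins seal the gaps between epithelial cells. The claudin genes cldnb (2497, 2085 and 11599, FC 4.65, 95% CI 4.46 to 4.84), cldnc (1395, 1476 and 5300, FC 3.80) and cldnh (2017, 2384 and 4957, FC 2.46) were higher. When the 27 claudins with a symbol were taken out of their list after the values were seen, 11 were higher, 1 was lower and 22 lay above the vehicle level.

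Cell adhesion proteins, among them cadherins and protocadherins, bind cells to each other. The class of cell adhesion, cadherin and protocadherin genes was formed from the gene descriptions after earlier results were known. Of its 196 genes 179 lay below the vehicle level, 17 (8.67%) were at least 2-fold lower and none was 2-fold higher, with a median log2 FC of -0.47. Over all genes 48.9% lay above the vehicle level, 4.74% were 2-fold lower and 7.40% were 2-fold higher. Protocadherins, which mark single neurons, made up much of this class, with 65 of 69 named pcdh genes below the vehicle level. Only 3 of these 69 genes were 2-fold lower. In the families matched to human PCDHGA11 and PCDHA8 4 of 18 and 3 of 11 members were 2-fold lower. For PCDHA3 and PCDHAC2 these counts were 2 of 23 and 1 of 18. Near-identical copies make the counts of single protocadherins uncertain. Among the cadherins proper, chosen after their values were seen, cdh2 of nerve and muscle held 4287, 3691 and 2550 normalized counts (FC 0.595), cdh15 of muscle precursors 179, 143 and 68.7 (FC 0.383), and cdh1 of epithelia 4412, 4384 and 7049 (FC 1.60).

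Most contractile genes of skeletal muscle stayed within 2-fold. Only 2 of 89 sarcomere genes were higher and 4 lower, with a median log2 FC of -0.22. Among the lower entries myh7 and myh7bb had the same reads in all 3 libraries. None of 37 calcium-handling and energy genes passed the threshold. The gene tcap, whose product caps titin at the Z-disc, held 404, 286 and 4129 normalized counts (FC 10.2, 95% CI 9.31 to 11.2), and the other higher gene, LOC100151586, was matched to the same human gene (FC 2.25). The list of muscle regulators and atrophy genes had 7 of 35 higher and 3 lower. Higher members included LOC100151027, matched to the stretch-responsive gene ANKRD1 (168, 162 and 1298, FC 7.75), and xirp1, an actin-binding protein of muscle attachment and repair (639, 711 and 2787, FC 4.36). Lower members included LOC100537416, matched to the muscle transcription factor MEF2A (91.7, 86.4 and 22.5, FC 0.245).

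Heart and blood genes were few on these lists. Of 23 cardiac genes 4 were higher and 1 lower, among them nppa, the atrial natriuretic peptide gene, with 269.5, 236 and 711 normalized counts (FC 2.64). Of the 22 globin and heme genes 2 were higher and none lower, but 18 lay above the vehicle level, with a median log2 FC of 0.68. The first enzyme of heme synthesis in red cells, alas2, held 213, 169 and 536 (FC 2.52, 95% CI 2.16 to 2.95), and the embryonic globin gene hbae3 held 5289, 5664 and 8972 (FC 1.70). The summed erythrocyte marker set was 1.73 times the vehicle level.

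Levels measured in whole larvae cannot be placed in the eye alone. On the list of photoreceptor and retinal regulators most genes were lower. Of its 32 genes none was 2-fold higher, 4 were 2-fold lower, among them six4 (FC 0.452), and 29 lay at or below the vehicle level (median log2 FC -0.50). The retinal homeobox gene rx2 held 230, 211 and 42.5 normalized counts (FC 0.185, 95% CI 0.125 to 0.264), and crx, which drives photoreceptor genes, held 2896, 2817 and 1390 (FC 0.480). Among transduction proteins, LOC562466, matched to the cone channel subunit CNGB3, held 1544, 1588 and 418 (FC 0.271), and the rod channel subunit match CNGA1 (LOC100334711) held 262, 432 and 640 (FC 2.44). The photoreceptor marker sum was 0.492 times the vehicle level, with the rod transducin gene gnat1 at 1.71 and the cone transducin gene gnat2 at 0.536. Of these markers only gnat1 lay above the vehicle level. The rod opsin gene rho was lower, with 58956, 44131 and 40251 (FC 0.683), so rod genes did not share a direction. Of 49 lens crystallins 4 (8.16%) were higher and 2 (4.08%) lower, near the shares over all genes (7.40% and 4.74%).

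Visual cycle and retinoid genes went both ways, with 8 of 50 higher and 6 lower. The retinol dehydrogenase gene rdh10b, which makes the retinal for retinoic acid, held 263, 319 and 861 (FC 3.27), the retinal carrier gene rlbp1b held 281, 580.5 and 869 (FC 3.10), and rdh5 of the pigment epithelium held 92.5, 129 and 217 (FC 2.35). The dehydrogenase genes rdh1 (2057, 1804 and 693, FC 0.337) and rdh8l (643, 456 and 239.9, FC 0.373) were lower.

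Zebrafish carry black melanophores, yellow xanthophores with pteridines and iridophores with purine crystals. Of 17 melanophore genes 9 were at least 2-fold higher and 1 lower, with a median log2 FC of 1.01. The melanosome genes pmela (749, 1362 and 1868 normalized counts, FC 2.49, 95% CI 2.30 to 2.71) and dct (113, 203 and 347, FC 3.07) lay at intermediate levels at 5 μg/L. Among the 21 pteridine and purine pigment genes 5 were higher and 2 lower. The purine enzyme gene pnp5a held 4565, 6970 and 16997 (FC 3.72, 95% CI 3.61 to 3.84) and the pteridine enzyme gene gch2 held 94.8, 108 and 321 (FC 3.38), whereas xdh, which acts later in purine and pteridine breakdown, held 3258, 3451 and 1447 (FC 0.444).

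Genes of the nervous system had few members past the threshold. Of 97 synaptic genes 5 were higher and none lower, but 25 lay above the vehicle level (median log2 FC -0.21), and of 160 transmitter genes 4 were higher and 10 lower (-0.19). Of 27 myelin and glia genes 2 were higher and 2 lower (7.41% each, beside 7.40% and 4.74% of all genes). The glial glutamate carrier gene slc1a2a was among the lower (579, 678 and 239.9, FC 0.414). Among the transmitter genes, the serotonin synthesis gene tph1b was higher (167, 173 and 495, FC 2.97). Of 38 clock genes 5 were higher and none lower, among them bhlhe41, a repressor in the clock loop (440.3, 559 and 1285, FC 2.92).

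Solute carriers move sugars, amino acids, ions and metabolites across membranes. Of 393 genes in this class, formed from descriptions, 56 (14.2%) were higher and 22 (5.6%) lower, beside 7.40% and 4.74% of all genes. The following carriers were chosen after their values were seen. The mitochondrial carrier gene slc25a25a, which moves adenine nucleotides against phosphate, held 875, 1126 and 6984 normalized counts (FC 7.98, 95% CI 7.48 to 8.52). The monocarboxylate carrier gene slc16a9a held 712, 854 and 3575 (FC 5.02), and slc27a2, which takes up fatty acids in the liver, held 2706, 2433 and 834 (FC 0.308). The glucose carrier gene slc2a1b held 413 in DMSO vehicle and 1430.4 at 500 μg/L (FC 3.47), while its duplicate slc2a1a had an FC of 1.06. Ionocytes exchange ions with the water through the larval skin. The ionocyte and acid-base list is not confined to them, as it holds aqp4, which is on the myelin and glia list too. Of its 101 genes 12 were higher and 7 lower. The sodium pump subunit gene atp1b1b held 5123, 5682 and 16046 (FC 3.13) and the carbonic anhydrase gene ca4b held 801, 856 and 281 (FC 0.351).

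Genes for DNA replication and mitosis were lower as a list, with 8 of 56 at least 2-fold lower, 1 higher and a median log2 FC of -0.53. The helicase subunit genes mcm5 (733, 446 and 287 normalized counts, FC 0.392, 95% CI 0.338 to 0.454), mcm6 (599, 446 and 236, FC 0.394) and mcm3 (205, 113 and 84.9, FC 0.415) had intermediate levels at 5 μg/L. Of the 9 genes of that family 8 lay below the vehicle level. On the histone list 8 of 28 were higher and 1 lower, and histone genes have many near-identical copies whose reads may be divided among them.

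Most members of the signalling pathways that pattern the embryo stayed within 2-fold. The median log2 FC was -0.46 for the 53 Notch and Hedgehog genes, -0.40 for the 66 Wnt genes, -0.36 for the 47 Hox genes and -0.23 for the 49 Fgf genes, and in each of these lists at most 3 members were higher and at most 4 lower. Single members passed the threshold. The Wnt ligand gene wnt7bb held 88.5, 86.4 and 35.0 normalized counts (FC 0.395) and wnt5a held 25.3, 21.9 and 76.2 (FC 3.01). The Hox gene hoxc4a held 203, 186 and 91.2 (FC 0.449). Over the 180 homeobox regulators by description, 131 lay below the vehicle level, 13 were 2-fold lower and 2 higher.

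Families of genes that share 1 human match were ranked by their share of changed members, among the 38 matches with at least 10 genes compared. Of the 44 PIM1-like genes in the table only 13 reached the minimum, 5 of these through the 500 μg/L library alone, so that their share of higher members (10 of 13) was partly set by the minimum. The next shares were those of HTRA2, a mitochondrial protease (11 of 17 higher, none lower), SNED1 (6 of 11 higher and 2 lower), MFAP4, a fibrinogen-related matrix protein (5 of 11 higher), and the glucuronyl transferase UGT2A1 (5 of 15 higher). Among the HTRA2-like genes 4 of the 17 were likewise under the minimum in DMSO vehicle, and they had a median of only 15.02 normalized counts in DMSO vehicle and 26.2 at 500 μg/L. Of the SNED1-like genes 2 were under the minimum at 500 μg/L. By share of lower members the other end held PCDHA8, TRIM39 (6 of 26 lower and 2 higher) and PCDHGA11. CD22 (2 of 10 lower and 1 higher) and GIMAP7, an immune GTPase (6 of 30 lower and 1 higher), came next. The median log2 FC of the GIMAP7-like genes was nevertheless 0.20. How many members of these families met the minimum only through DMSO vehicle was not counted, so the shares of lower members may be partly set by the minimum. Reads shared between near-identical members of such families could not be examined.

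Zebrafish carry many pairs of duplicate genes from an ancient doubling of the fish genome, and their symbols end in a and b. Both members of 1254 pairs with such symbols were compared, of which 1024 shared 1 human match. As pairs were formed by symbol alone, some are not duplicates, such as the fibrinogen chain genes fga and fgb. In 30 pairs both were at least 2-fold higher, in 5 both were lower, in 119 only 1 was higher and in 67 only 1 was lower. Among the pairs with both higher, chosen after their values were seen, were the cytokine feedback genes socs3a (FC 4.58) and socs3b (2.89), the arrestin-related genes arrdc3a (2.13) and arrdc3b (3.58) and the claudins cldn7a (2.24) and cldn7b (2.26). In 4 pairs 1 was higher and the other lower, and in 2 of these both held at least 50 normalized counts. The stress kinase gene mapkapk2a held 1565, 1776 and 3939 normalized counts (FC 2.52, 95% CI 2.38 to 2.66) and mapkapk2b held 129.6, 134 and 58.7 (FC 0.453, 95% CI 0.320 to 0.630). The glutamate carrier genes also moved apart, with slc1a8b at 326, 385 and 667 (FC 2.05, 95% CI 1.8 to 2.34) and slc1a8a at 413, 312 and 119 (FC 0.288, 95% CI 0.229 to 0.359).

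**Figure D5:**
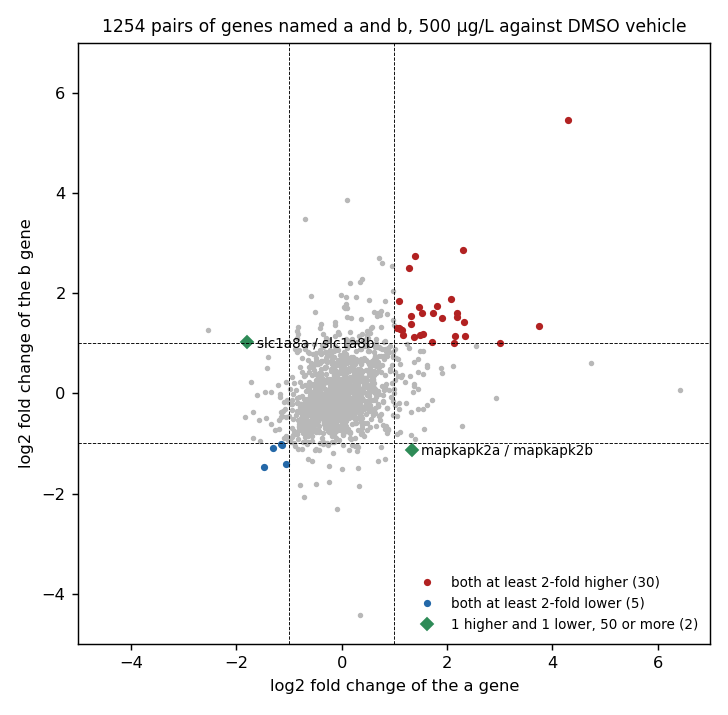
Log2 FC of the a gene (horizontal axis) and the b gene (vertical axis) of each of the 1254 pairs at 500 μg/L against DMSO vehicle. Pairs were formed by symbol alone, and dashed lines mark 2-fold. Red points are the 30 pairs with both members higher, blue points the 5 pairs with both lower, and green diamonds the 2 pairs with 1 higher and 1 lower member at 50 or more normalized counts.

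In 5 other pairs, chosen after their values were seen, only 1 member passed the 2-fold threshold. The metalloproteinase inhibitor timp2b had an FC of 14.5 and timp2a 1.08. The kinase gene sgk2b had 11.3 and sgk2a 0.615, although they were matched to different human genes, SGK1 and SGK2. The hormone gene pth1a had 113 and pth1b 1.04. In metabolism, the pyruvate dehydrogenase subunit gene pdha1a held 4966, 5761 and 6204 normalized counts (FC 1.25) and pdha1b held 236, 278 and 65.0 (FC 0.275). The thioredoxin-binding genes txnipa (19079, 21780 and 33810, FC 1.77) and txnipb (883, 937 and 355, FC 0.402) differed in direction, although only txnipb passed the threshold. In each of these 5 pairs the members were deposited as separate gene models, and reads shared between them could not be examined.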

How the data were processed

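Poly(A) RNA from pooled whole larvae was sequenced once per condition. The authors mapped the reads by BLAST to zebrafish (Zv9) and human (hg19) references and applied TMM, so the deposited signal is a normalized count. The counting method, annotation version and strand handling are not given in the sources used here. In all 3 libraries 100% of the deposited values were whole multiples of a step (tolerance 0.01 of a read, largest deviation 0.00264), worth 0.790, 1.09 and 1.25 normalized counts in order of dose, so whole reads were recovered.

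FCs were ratios of normalized counts, with Clopper-Pearson 95% CIs. Tests on the recovered reads compare 2 libraries, not the conditions. With a 2-fold threshold, Fisher's exact test with Benjamini-Hochberg adjustment called 1988 genes (2031 by unadjusted p), and edgeR 4.0.16 called 739 with the biological coefficient of variation (BCV) set to 0.2 and 20 with it set to 0.4. The other alternatives were the minimum count, the scaling, the pseudocount and the MARS test. Python 3.11.15, pandas 2.3.3, scipy 1.17.1 and R 4.3.3 were used, and the method was tested on simulated data.

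The genes, the 72 lists and the tests were chosen with earlier results of these data known. Lists were matched by symbol or human match, and 199 wrong matches were removed by name after the members were seen. Genes were named by rule: the 8 largest and 8 smallest FCs (at least 100 normalized counts), the 8 largest gains and losses, up to 3 members each way per list (at least 50 normalized counts) with its most abundant member, duplicate pairs with opposite changes, families of 10 or more genes, and genes the study names. The others are given as chosen after their values were seen. Entries named only by a clone prefix, 15.8% to 16.1% of the reads, were left out. Genes with the same reads in all 3 libraries formed 88 groups of 180 genes, with 6 higher and 6 lower. All 180 held at least 10 reads both in DMSO vehicle and at 500 μg/L. Pairs with fewer reads, such as MGC174155 and LOC100537665, were not included. Each gene with shared reads was counted singly. The 13 classes by description were written after the lists. Promoter motifs were not analysed here.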

Additional observations from a re-analysis of the deposited data

Results flagged for a closer look

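Entries outside the mRNA genes also differed between DMSO vehicle and 500 μg/L, in data that no comparison above uses. Of 752 ncRNA entries 259 held at least 10 normalized counts in 1 or both libraries, and 30 of these (11.6%) were at least 2-fold higher and 15 (5.79%) at least 2-fold lower, with a median log2 FC of 0.03. Of 521 miscRNA entries 462 reached the minimum, and 30 of these (6.49%) were higher and 18 (3.90%) lower, with a median of 0.06. The shares over mRNA genes were 7.40% and 4.74%. The libraries were made by poly(A) selection, and the difference between these classes was not tested.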

How the results depend on the processing

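No paired analysis was possible because each condition had 1 library. The numbers of genes at least 2-fold higher (1314) and lower (841) depended on how low counts and unmeasured variation were treated. Without a minimum 1787 were higher and 1426 lower, and with a minimum of 50 normalized counts 1052 and 535. With the whole CI past 2-fold there were 708 and 233. With edgeR and an assumed BCV of 0.2 there were 567 and 172, and with a BCV of 0.4 there were 20 and 0, against 1247 and 741 by Fisher's exact test (adjusted p) and 1354 and 877 by the MARS test. The MARS counts exceed 1314 and 841, so they cannot be a part of the same called genes and are not a like comparison. Scaling each library to its total gave 1218 and 930, centring the median log ratio gave 1301 and 851, and a pseudocount of 5 gave 1150 and 645. The higher genes were 61.0% of the changed genes, and between 55.6% and 66.3% under the minimum, scaling and pseudocount alternatives. The list medians moved by less than their counting error for all 72 lists with a pseudocount of 5 or a centred median, for 68 with scaling to the total and for 69 with either minimum. Without a minimum 3 medians changed sign, those of the interferon response (0.10 to -0.10), the histones (-0.03 to 0.36) and the osteoblast and osteoclast genes (0.03 to -0.05). With scaling to the total 2 near 0 did, fatty acid synthesis and osteoblast and osteoclast genes. Keeping all pattern matches, an alternative chosen after seeing the data, moved the number of higher members in 8 lists and of lower members in 6, and membership by symbol alone in 26 and 29. Both duplicate pairs with opposite changes stayed apart by their CIs. Depth limits the genes with few reads, whose CIs are wide, and the lack of replicates limits every value.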
